A study of Mus musculus with 97 samples.

Results

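The 78 genes described here carry the names of mitochondrial ribosomal proteins and, with Mrps36 as an exception given below, encode proteins of that ribosome, as measured in the whole colon of antibiotic-treated mice. They were taken by name, as every gene called Mrpl or Mrps with a number, without names that end in -ps and with a TPM, a transcript level scaled for length and library total, of at least 1 in at least 4 libraries. The pattern matched 80 names, of which 2 were -ps names (Mrpl23-ps1 and Mrps36-ps2), and none of the others was below the filter. The 78 members were among 17083 genes that passed the same filter, of 20457 in the table. By gene name, 27 were counted with the small subunit, Mrps36 among them, and 51 with the large one, to which Mrps30 and Mrps18a were moved. In the list used here, 45 were set down as having a named bacterial counterpart and 33, Mrps28 among them, as having none.

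Mitochondria hold their own ribosome, which descends from that of bacteria. Its RNAs are made inside the mitochondrion, its proteins come from nuclear genes and are imported, and it translates the few proteins of the mitochondrial genome, all of them core subunits of the oxidative phosphorylation complexes. Because of this descent, antibiotics that act on bacterial ribosomes can act on it too. Aminoglycosides such as neomycin bind the decoding site of the bacterial small subunit and can bind the mitochondrial one. Ampicillin and vancomycin act on cell wall synthesis, and metronidazole becomes active in anaerobic microbes.

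The mice were wild-type C57BL6/J animals of 8 to 12 weeks, kept free of specific pathogens on standard chow. They were given 2.5 mg of ampicillin, metronidazole, neomycin or vancomycin, or a mix of these 4, in 100 µl of phosphate-buffered saline (PBS), and the controls were given 100 µl of PBS alone. Dosing was 2 times daily for 3 days with a last dose on day 4, by oral gavage (PO), intraperitoneal injection (IP) or intravenous injection (IV), and the colon was taken 4 hours after it. The dose of each drug within the mix is not given in the sources used here. In all, 97 libraries made up 18 groups of 4 to 6, and each treated group was compared with PBS of its own route (6 PBS-PO, 4 PBS-IP and 5 PBS-IV libraries). All 5 treatments of a route therefore share the same PBS libraries. The labels number the libraries of a group without saying that each is a separate mouse, so the p-values below measure the spread between libraries.

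Values are TPM, which is scaled for transcript length and has the same total in each library, so no sequencing depth could be read from them. Across the series, 18247 to 19884 genes had a value above 0. Whole colon is a mixture of mucosa and muscle wall, and the libraries differed in it: the mean log2(TPM + 1) of 18 muscle genes, used below as a smooth muscle score, ran from 7.44 to 11.8, and a distal score over 5 posterior Hox genes from 0.69 to 6.25. Between 3.52% and 27.5% of a library's TPM came from the protein genes of the mitochondrial genome. In each group, every gene of the 10 marker lists examined (smooth muscle, goblet cell, surface colonocyte, enteric neuron and glia, fibroblast, B cell, T cell, macrophage, proliferation and distal colon) had a value above 0 in at least 1 library. Further, 12 columns stood at the end of the table out of order, among them 3 of the 4 Vancomycin-IP and 2 of the 4 PBS-IP libraries.

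The mitochondrial ribosomal protein genes were expressed at moderate levels in every library. Their summed TPM had a median of 3025 over the 97 libraries and ran from 1950 in a library given ampicillin orally to 4126 in one given neomycin orally, a 2.12-fold range, or 0.195% to 0.413% of all transcripts. The large subunit's level, summed over 51 genes, was 1.92 to 2.23 times that of the small subunit, summed over 27. Of the 78 members, 71 had a mean above the median gene of the tested set (18.6 TPM), 73 lay between 10 and 100 TPM, and the median member stood at 34.9 TPM.

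Mrpl12, whose product forms the stalk that recruits translation factors, had the highest mean, at 121 TPM (36.6 to 205). It was followed by Mrpl24 at 111 TPM, Mrpl51 at 97.2 TPM, Mrps21 at 82.9 TPM and Mrpl42 at 81.5 TPM. The ranges of these 5 genes over the libraries overlapped. The lowest mean was that of Mrpl1, at 3.65 TPM (0.83 to 6.47), the 1 member below 1 TPM in a library, followed by Mrpl23 at 6.59 TPM, Mrps22 at 9.24 TPM, Mrps11 at 12.4 TPM and Mrpl22 at 13.2 TPM. Mrpl23 is uncertain, because its near copy Mrpl23-ps1 was listed at 39.8 TPM (22.9 to 78.3) and reads of the pair may have been split between them. Mrps36-ps2 stood at 1.98 TPM beside Mrps36, whose product is now placed in the 2-oxoglutarate dehydrogenase complex rather than in the ribosome. Members differed in how far they varied: the highest library was 1.97 times the lowest for Mrps7 and 11.7 times for Mrpl49, with a median of 3.01 times.

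**Figure D1:**
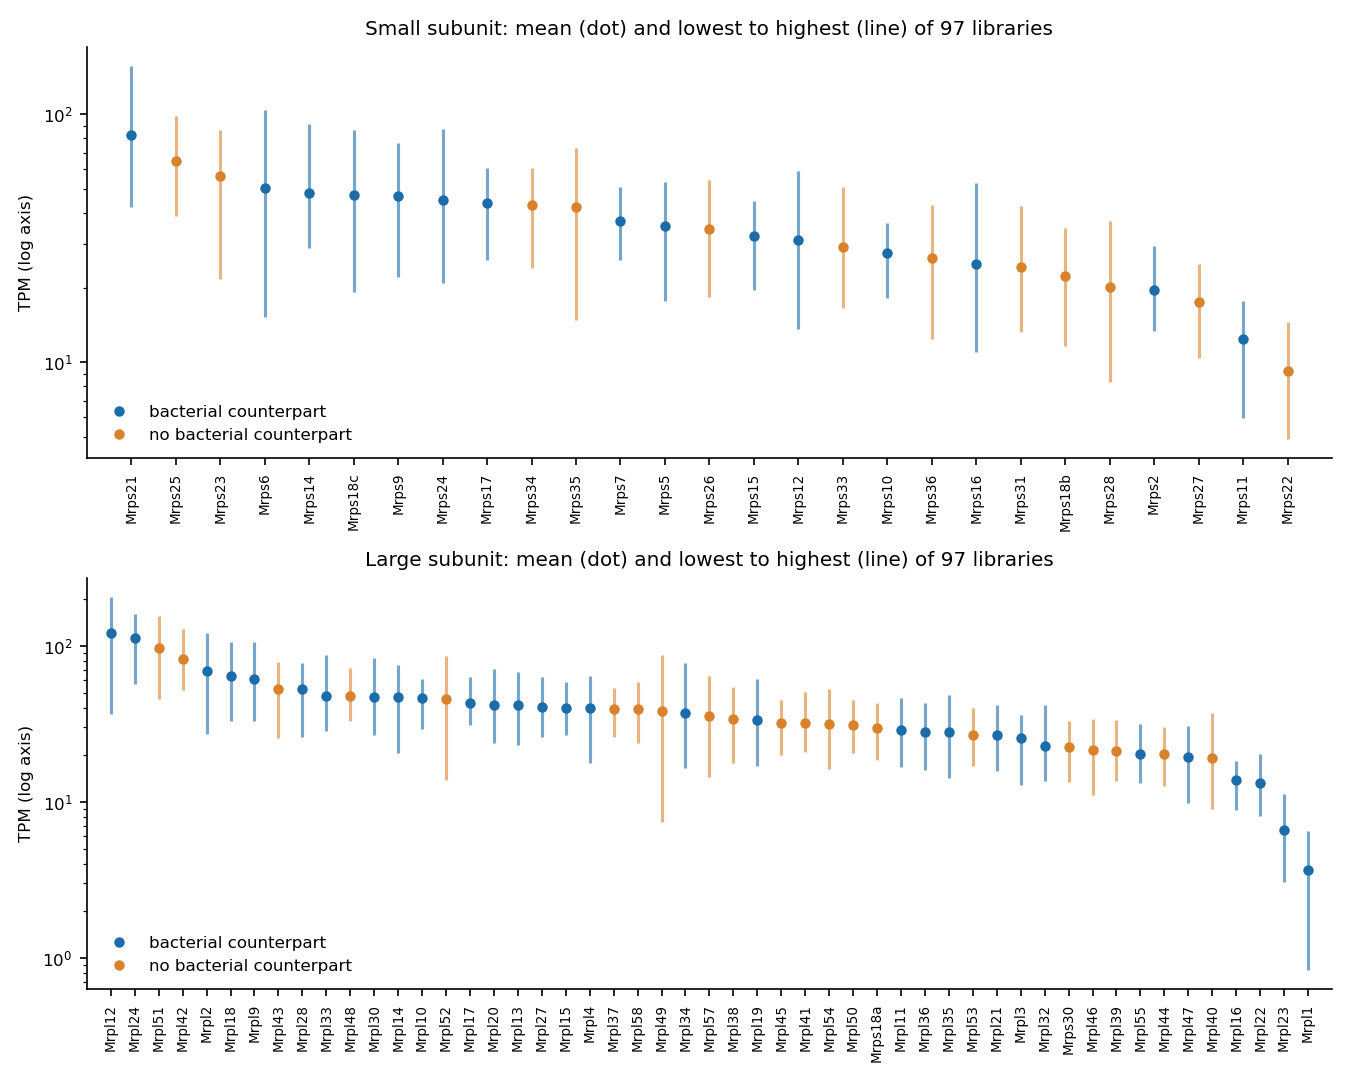
TPM of each small subunit gene (upper panel) and large subunit gene (lower panel) on a log axis. The dot is the mean and the line runs from the lowest to the highest of 97 libraries. Colour shows whether the protein was listed with a bacterial counterpart. Most genes lie between 10 and 100 TPM, with Mrpl12 (121 TPM) and Mrpl24 (111 TPM) above and Mrpl1 (3.65 TPM), Mrpl23 (6.59 TPM) and Mrps22 (9.24 TPM) below.

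Most members rose and fell together from library to library. On log2(TPM + 1), 64 of 78 had a correlation of 0.5 or more with the mean of the other members over the 97 libraries, and the median was 0.77. The closest followers were Mrpl46 (0.94), Mrpl36 (0.92), Mrpl51 (0.91) and Mrpl30 (0.91). Mrpl4, Mrpl23, Mrpl38 and Mrpl49, all of the large subunit, had correlations below 0, from -0.23 to -0.10. These values are a description: the points share the tissue mixture of each library and the constraint that TPM sums to a constant.

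Promoter sequences are shown as a description. Whether the strings in them bear on how the members moved across libraries was not tested. RefSeq promoters (GRCm38.p6, 250 bases before the transcription start to 50 after it) were held for 69 of the 78 members. Among these, 26 (37.7%) contained the ETS core CCGGAAG on either strand, against 17.1% of tested genes with a promoter entry. The YY1 string AAGATGGC was found in 12 (17.4%) against 4.58%, and the NRF-1 core GCATGCGC in 8 (11.6%) against 5.21%. At least 1 of these 3 strings stood in 55.1% of members and 24.5% of tested genes. Not all matches were upstream. The YY1 string of Mrpl35, Mrpl37, Mrpl42, Mrpl49, Mrps18a, Mrps24, Mrps27 and Mrps7 lay after the transcription start, on the + strand. ETS and NRF-1 cores lay on both sides of the start. The members were at or below the tested genes for the E-box CACGTG (7.25% against 10.8%), TATAAA (7.25% against 10.1%), CCAAT (39.1% against 42.3%) and the GC box GGGCGG (49.3% against 63.8%). In all, 13 strings were counted and those named were picked with the counts in view. A match is a run of letters, and no binding was measured. The stretches below end at the base before the start and were chosen for the strings they hold, set in capitals: an ETS core in Mrpl51 (the third highest member, chr6:125192080-125192199, + strand) and in Mrpl52 (chr14:54426809-54426908, + strand), overlapping NRF-1 cores in Mrpl32 (chr13:14613038-14613157, - strand) and Mrpl9 (chr3:94443236-94443335, + strand), and a YY1 string in Mrps12 (chr7:28741822-28742041, - strand).
Mrpl51: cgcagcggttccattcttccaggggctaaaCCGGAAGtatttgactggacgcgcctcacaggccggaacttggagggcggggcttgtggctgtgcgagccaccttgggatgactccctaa
Mrpl52: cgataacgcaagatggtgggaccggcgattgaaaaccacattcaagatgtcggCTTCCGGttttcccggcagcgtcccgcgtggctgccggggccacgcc
Mrpl32: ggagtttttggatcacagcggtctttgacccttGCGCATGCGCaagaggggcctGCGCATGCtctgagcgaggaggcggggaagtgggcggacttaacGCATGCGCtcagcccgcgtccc
Mrpl9: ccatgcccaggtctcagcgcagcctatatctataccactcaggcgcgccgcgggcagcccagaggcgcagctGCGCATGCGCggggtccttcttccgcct
Mrps12: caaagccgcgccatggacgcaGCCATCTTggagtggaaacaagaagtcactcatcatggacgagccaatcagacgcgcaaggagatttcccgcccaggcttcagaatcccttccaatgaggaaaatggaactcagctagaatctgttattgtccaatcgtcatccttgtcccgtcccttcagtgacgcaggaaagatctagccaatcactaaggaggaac

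Neomycin, the aminoglycoside of the study, was compared with PBS first, since its class can bind the mitochondrial ribosome. With equally weighted libraries no member was called by any route at a limma adjusted p under 0.05. The share of all tested genes called was 0.0176% for oral, 0.603% for intraperitoneal and 0.544% for intravenous neomycin. At an unadjusted p under 0.05 there were 0 members for oral neomycin (5.35% of tested genes), 1 for the intraperitoneal route (5.81%) and 1 for the intravenous route (7.24%). The members' median log2 fold change on the log2(TPM + 1) scale was -0.06 by the oral, -0.04 by the intraperitoneal and 0.09 by the intravenous route, beside 0.06, 0.08 and -0.03 for all tested genes. The sign of these medians turned in other fits: the intravenous one was -0.03 without mitochondrial genome transcripts, and the oral one 0.06 with array weights, which give each library its own weight. Single members ranged from -0.45 (Mrps6) to 0.15 (Mrpl1) for oral, from -0.34 (Mrpl54) to 0.53 (Mrpl49) for intraperitoneal and from -0.20 (Mrpl20) to 0.41 (Mrps23) for intravenous neomycin. The absence of a call with equal weights bounds the changes without showing that there were none. In that fit the 95% interval of the fold change was compared with ±1 (a 2-fold change). It lay within these limits for 77, 77 and 75 of the 78 members by the oral, intraperitoneal and intravenous routes. Its median half-width was 0.35 to 0.39. With array weights 1 member, Mrpl22, was called for intraperitoneal neomycin, against 6.67% of tested genes.

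Mrps12 encodes the counterpart of bacterial protein S12, which lines the decoding site. By the oral route it ran from 17.4 to 41.1 TPM (median 28.4, n = 6) with neomycin and from 22.1 to 45.9 TPM (median 33.7, n = 6) with PBS. By the intraperitoneal route the neomycin libraries ran from 26.9 to 42.7 TPM (median 30.3, n = 6), and the PBS libraries were at 33.4, 36.2, 25.6 and 38.8 TPM. By the intravenous route it was at 25.5, 38.6, 37.8, 23.2 and 37.8 TPM with neomycin and at 32.0, 37.2, 36.3, 13.6 and 29.4 TPM with PBS. The groups overlapped by each route, and the lowest of all these values was PBS-IV replicate 4. The log2 fold changes were -0.29 ± 0.23 (SE), -0.05 ± 0.25 and 0.18 ± 0.25 by the oral, intraperitoneal and intravenous routes, with limma adjusted p of 0.999, 1.00 and 0.882.

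Mrpl12, the stalk gene, also overlapped between neomycin and PBS by each route. Oral neomycin libraries spread most, from 48.3 to 199 TPM (median 139.9, n = 6), against 74.7 to 154 TPM (median 136, n = 6) with PBS. The intravenous libraries were at 94.7, 180, 180, 117 and 140.3 TPM with neomycin and at 123, 139, 160.2, 43.6 and 117 TPM with PBS. Its log2 fold changes were -0.16 ± 0.34 (SE) by the oral, 0.09 ± 0.38 by the intraperitoneal and 0.37 ± 0.37 by the intravenous route, none called. Mrpl58, whose product frees peptides from stalled mitochondrial ribosomes, had log2 fold changes of -0.14 ± 0.15, -0.12 ± 0.17 and 0.08 ± 0.17 in the same order and was not called.

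Mrps23, a small subunit protein with no bacterial counterpart, had the smallest unadjusted p in both injected comparisons. With intraperitoneal neomycin it was at 71.0, 45.3, 60.1, 56.2, 53.2 and 64.5 TPM, and in the PBS-IP libraries at 45.1, 50.9, 30.6 and 41.9 TPM. With intravenous neomycin it was at 59.7, 47.7, 45.01, 66.9 and 64.5 TPM, and in the PBS-IV libraries at 41.9, 29.5, 33.3, 62.8 and 50.7 TPM. The treated libraries were mostly higher, and both pairs of groups overlapped. The log2 fold changes were 0.47 ± 0.19 (SE, limma adjusted p = 0.521) and 0.41 ± 0.18 (adjusted p = 0.607), and that by the oral route was 0.00 ± 0.17 (adjusted p = 1.00). The other members with the smallest p were Mrpl19, Mrpl16, Mrpl17 and Mrps2 for oral, Mrps34, Mrpl22 and Mrpl3 for intraperitoneal and Mrps18c, Mrpl21 and Mrpl45 for intravenous neomycin, the smallest adjusted p among them being 0.698 for Mrps18c.

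**Figure D2:**
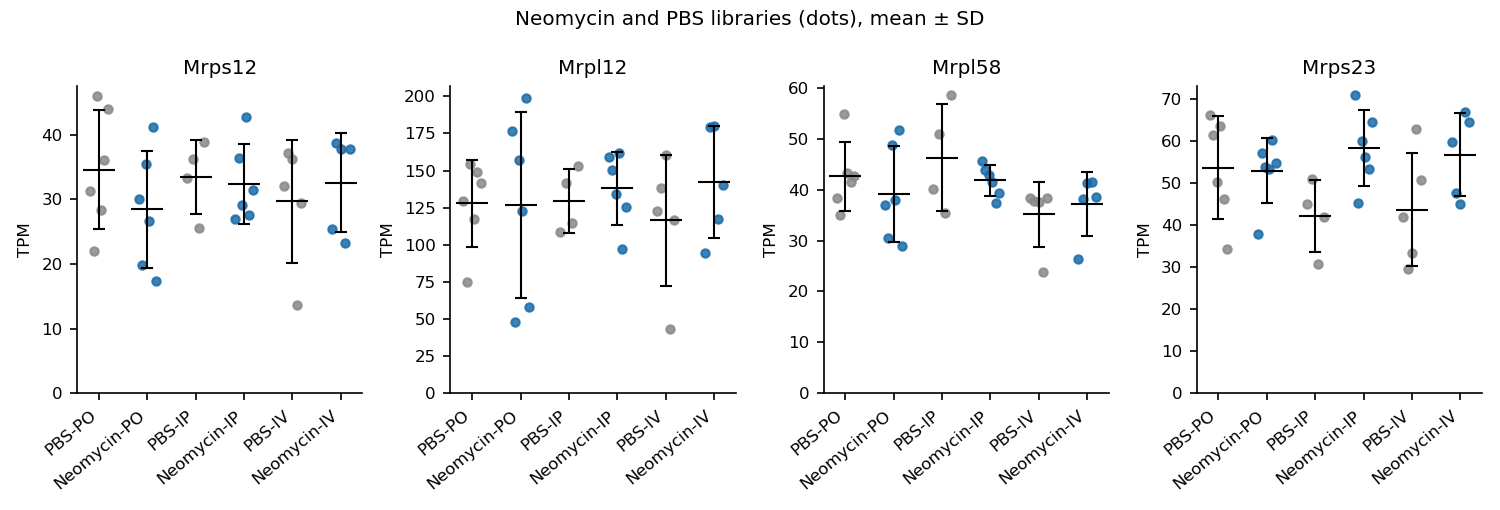
TPM of Mrps12, Mrpl12, Mrpl58 and Mrps23 in each neomycin and PBS library by route (dots), with the mean and SD of each group. Treated and PBS libraries overlap for each gene and route; Mrps23 has the clearest shift by injection, from a mean of 42.1 to 58.4 TPM intraperitoneally and from 43.6 to 56.8 TPM intravenously.

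The genes that work with the ribosome were also not called with neomycin. Of the 5 ribosome proteins under other names, 13 translation factors, 24 assembly and rRNA modification genes and 17 mitochondrial aminoacyl-tRNA synthetases, none was called by any of the 3 routes with limma. At an unadjusted p under 0.05 there was 1 translation factor and 1 assembly gene for intraperitoneal and 1 assembly gene for oral neomycin, all higher. The 13 protein genes of the mitochondrial genome, whose messages the ribosome reads, had negative medians, at -0.68 by the oral, -0.998 by the intraperitoneal and -1.004 by the intravenous route, and 4, 10 and 13 of them were lower at an unadjusted p under 0.05. None of the 13 passed the adjusted threshold. Their median was below 0 in the comparisons of every other treatment too, from -0.61 for intraperitoneal metronidazole to -0.13 for oral ampicillin. A median below 0 was therefore not particular to neomycin, though its medians were the lowest of the 15 comparisons. At an unadjusted limma p under 0.05, 3 of the 13 genes were lower for intraperitoneal and 1 for oral metronidazole. None was for intravenous metronidazole, nor for ampicillin, vancomycin or the mix by any route. All treatments of a route share their PBS libraries. Among the marker lists, 7 of 8 B cell genes were higher with oral neomycin at an unadjusted limma p under 0.05, and none of the 8 was called. At that threshold 652 of 17083 tested genes were higher. The summed B cell level was uneven, from 39.4 to 2337 TPM (median 151) against 11.9 to 109 TPM (median 56.0) in PBS-PO. The mitochondrial genome's share of the TPM was 7.05%, 6.43% and 6.85% in the oral, intraperitoneal and intravenous neomycin groups, against 10.5%, 13.1% and 13.97% with PBS. In each injected PBS group 1 library stood apart, PBS-IP replicate 3 at 25.1% (others 7.77% to 10.9%) and PBS-IV replicate 4 at 25.7% (others 9.93% to 12.3%). Without them the PBS shares were 9.15% and 11.04%, and the medians of the 13 genes were -0.67 by the intraperitoneal and -0.77 by the intravenous route, with no test made. Since TPM has a fixed total, the members were also taken without these genes: the members' medians were -0.11, -0.14 and -0.03 in the same order.

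Vancomycin given intraperitoneally was the 1 of the 15 comparisons in which members were called with equally weighted libraries. Against PBS-IP, 8 members (10.3%) fell and none rose, while 3.08% of all tested genes were called lower and 2726 of the 17083 higher, 19.0% in either direction. The called members were Mrps35 of the small subunit and Mrpl57, Mrpl51, Mrpl14, Mrpl2, Mrpl18, Mrpl47 and Mrpl32 of the large one, of which the last pair was named after its values were seen. The members' median log2 fold change was -0.31 beside 0.11 for all tested genes, 67 of the 78 were below 0, and 26 were lower and 3 higher at an unadjusted p under 0.05 (1873 and 4548 of 17083 tested genes, 37.6% in either direction).

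Mrps35, a small subunit protein without a bacterial counterpart, fell most among the called members. It was at 23.8, 17.9, 29.1 and 44.0 TPM in the Vancomycin-IP libraries and at 56.0, 73.0, 37.7 and 65.1 TPM in PBS-IP, with a fitted log2 difference of -1.02 ± 0.35 (SE) and an adjusted p of 0.0347 by limma. Mrpl57, also without one, was at 24.6, 14.4, 20.5 and 43.5 TPM against 49.5, 58.8, 29.6 and 53.8 TPM, and fell by 0.94 ± 0.32 on the log2 scale (adjusted p = 0.0352). In both genes, 3 of the 4 treated libraries lay below every PBS library, and treated replicate 4 lay above PBS replicate 3.

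Mrpl51 was at 68.8, 50.3, 58.3 and 104 TPM with vancomycin and at 115, 131, 87.2 and 146 TPM with PBS (log2 difference -0.79 ± 0.29, SE; adjusted p = 0.0489 by limma). Mrpl14, the counterpart of bacterial L14 at the face between the subunits, was at 32.3, 28.3, 28.3 and 51.9 TPM against 55.9, 63.4, 45.8 and 74.6 TPM (-0.77 ± 0.29; adjusted p = 0.0491). Mrpl2, the counterpart of bacterial L2 near the peptidyl transferase centre, was at 55.4, 27.3, 34.6 and 55.7 TPM against 71.9, 79.7, 53.4 and 73.7 TPM (-0.72 ± 0.27; adjusted p = 0.0493). Each of the 3 was close to the threshold, and in each the treated and PBS libraries overlapped.

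Mrpl18, from the family of bacterial L18 that holds 5S ribosomal RNA in bacteria, had the smallest adjusted p of the members. It was at 47.9, 41.0, 32.9 and 53.6 TPM with vancomycin and at 86.7, 89.9, 51.0 and 62.2 TPM with PBS (log2 difference -0.70 ± 0.23, SE; adjusted p = 0.0314 by limma). Mrpl47 was at 14.2, 9.78, 12.2 and 18.1 TPM against 21.3, 27.1, 16.8 and 19.4 TPM (-0.62 ± 0.21; adjusted p = 0.0350). Mrpl32 was at 17.9, 17.1, 14.6 and 22.0 TPM against 28.9, 36.6, 18.1 and 29.6 TPM (-0.61 ± 0.21; adjusted p = 0.0389). For all 8 called members the highest treated library was replicate 4 and the lowest PBS library was replicate 3, and the groups overlapped. Mrps6 had the largest fall of any member without passing the test, at 33.5, 18.05, 25.5 and 52.3 TPM against 78.4, 80.1, 37.7 and 90.5 TPM (-1.16 ± 0.46; adjusted p = 0.0619), and was named after its values were seen. Mrps12 (-0.23), Mrpl12 (-0.66) and Mrpl58 (-0.37) were not called, with adjusted p of 0.554, 0.235 and 0.136.

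In contrast, Mrpl49 and Mrpl3 were higher in every treated than in every PBS library, as were 22.9% of tested genes, without passing the test. Mrpl49 was at 52.0, 56.3, 47.1 and 44.5 TPM against 27.0, 29.5, 31.6 and 28.8 TPM (log2 fold change 0.75 ± 0.44, adjusted p = 0.193), and Mrpl3 at 27.1, 33.9, 26.3 and 29.3 TPM against 23.0, 24.3, 16.04 and 25.9 TPM (0.39 ± 0.18, adjusted p = 0.0999).

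**Figure D3:**
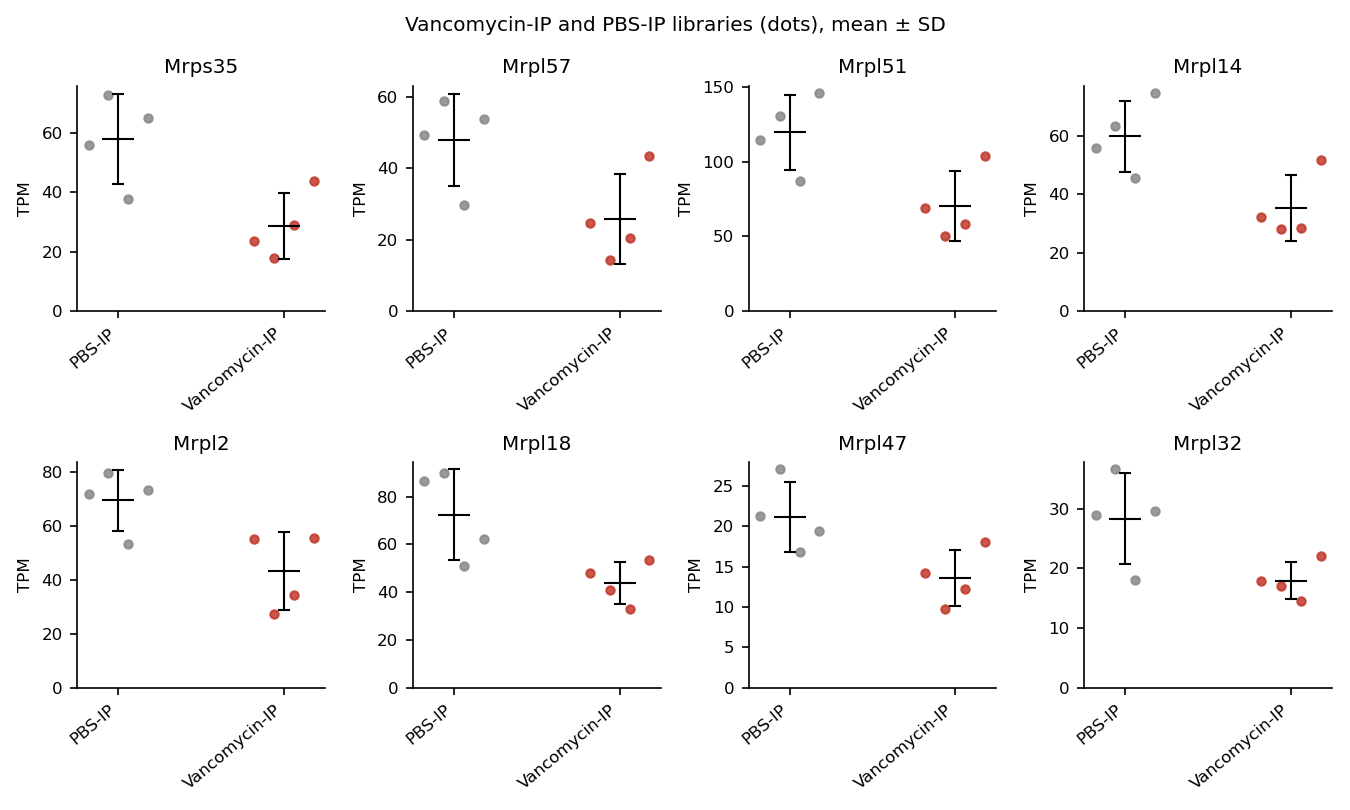
TPM of the 8 called members in each PBS-IP and Vancomycin-IP library (dots, replicates 1 to 4 from left to right within a group), with the mean and SD. In every panel the treated mean is lower, and the highest treated dot is above the lowest PBS dot.

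The muscle content of the same libraries differed as well. The smooth muscle score was 11.2 ± 0.283 (SD, n = 4) in Vancomycin-IP and 8.96 ± 0.466 in PBS-IP. Of the 18 smooth muscle markers, 17 were called higher, and their summed level ran from 59963 to 100916 TPM against 12365 to 21765 TPM. Of 10 goblet cell markers, 4 were called lower, with a summed level of 547 to 6255 TPM against 7968 to 24549 TPM. Further, 5 of 11 enteric neuron and glia markers, 4 of 8 fibroblast markers and 1 of 8 macrophage markers (Adgre1) were called higher, and 1 of 8 proliferation markers (Mki67) was called lower. In a bulk sample, fewer cells of a type and less RNA per cell cannot be told apart. With the muscle and distal scores in the model no member was called, against 0.556% of tested genes. Of the members called without them, the 6 largest falls became log2 fold changes of -0.34 to -0.09 (limma adjusted p of 0.671 to 0.970). The members' median was 0.00. The muscle scores of the groups did not overlap, at 10.8 to 11.5 in Vancomycin-IP and 8.55 to 9.36 in PBS-IP. Treatment and muscle content can therefore not be told apart in this comparison. The slopes in that model come from all 18 groups.

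Single libraries decided the count. It was 0 without PBS-IP replicate 1, or without Vancomycin-IP replicate 1, 2 or 3, where 5.41%, 3.56%, 3.25% and 8.34% of tested genes were called in either direction. It was 1 without PBS-IP replicate 2 or 4 (1925 and 1885 of 17083 tested genes). It rose to 16 (20.5% of members) without PBS-IP replicate 3, where 14.1% of tested genes were called, and to 27 (34.6%) without Vancomycin-IP replicate 4, where 26.8% were. Within the columns at the end of the table (3 treated, 2 PBS) all 8 called members were lower with vancomycin, by -0.78 for Mrps35 to -0.38 for Mrpl32 in mean log2(TPM + 1). They were also lower among the other columns (1 treated, 2 PBS), by -1.39 for Mrps35 to -0.44 for Mrpl2. No test was made within either set of columns.

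Some other genes of the mitochondrial translation system were called in the same comparison. Of all 17083 tested genes, 3.08% were called lower and 2726 higher, 19.0% in either direction. The shares called among the translation factors, assembly genes and synthetases given here were below that. Of the 5 ribosome proteins under other names, Aurkaip1 fell (59.4 ± 15.1 against 92.7 ± 20.8 TPM, SD, n = 4 each; limma adjusted p = 0.0455). Among 13 translation factors, Mtrf1l, a release factor, fell (log2 difference -0.65 ± 0.21, SE; adjusted p = 0.0255) and Mrrf, the ribosome recycling factor, rose (1.28 ± 0.38; adjusted p = 0.0212). Malsu1, an assembly factor of the large subunit, was the 1 of 24 assembly genes called (-0.58 ± 0.22; adjusted p = 0.0498), and Iars2, the isoleucyl-tRNA synthetase, the 1 of 17 synthetases (-0.60 ± 0.19; adjusted p = 0.0248). Of 83 nuclear oxidative phosphorylation subunits, 17 were called lower. The largest falls were those of Cox7a1 (16.02 ± 14.96 against 64.6 ± 16.1 TPM, SD, n = 4 each; log2 fold change -2.30), Ndufa6 (-1.66) and Cox7b (-1.35), subunits of complexes IV and I. Of 79 cytosolic ribosomal proteins 1, Rps4l, was called lower (-1.39). Their median log2 fold change was -0.61, further below 0 than the members' -0.31. At an unadjusted limma p under 0.05, 20 of them were lower and 0 higher. A share like that of all tested genes (2726 of 17083) was called higher among genes of the mitochondrial stress response, 3 of 17 rows. They were a row of Ddit3 at 0.928 TPM with PBS, whose other row, at 23.4 TPM with PBS, was not called, and Atf5, a transcription factor of that response (105 ± 16.7 against 41.2 ± 9.03 TPM, SD, n = 4 each), and Lonp1, a mitochondrial protease (77.0 ± 2.42 against 59.9 ± 7.80 TPM). These calls rested on single libraries too: leaving out each of the 8 libraries in turn ended the call in 4 runs for Mrrf, in 5 for Mtrf1l, Cox7a1, Ndufa6, Cox7b and Lonp1 and in 6 for Aurkaip1, Malsu1, Iars2, Rps4l and Atf5, with no change of direction. With the muscle and distal scores in the model none of these 11 genes was called, against 0.556% of tested genes. The smallest limma adjusted p was 0.304, for Mtrf1l.

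**Figure D4:**
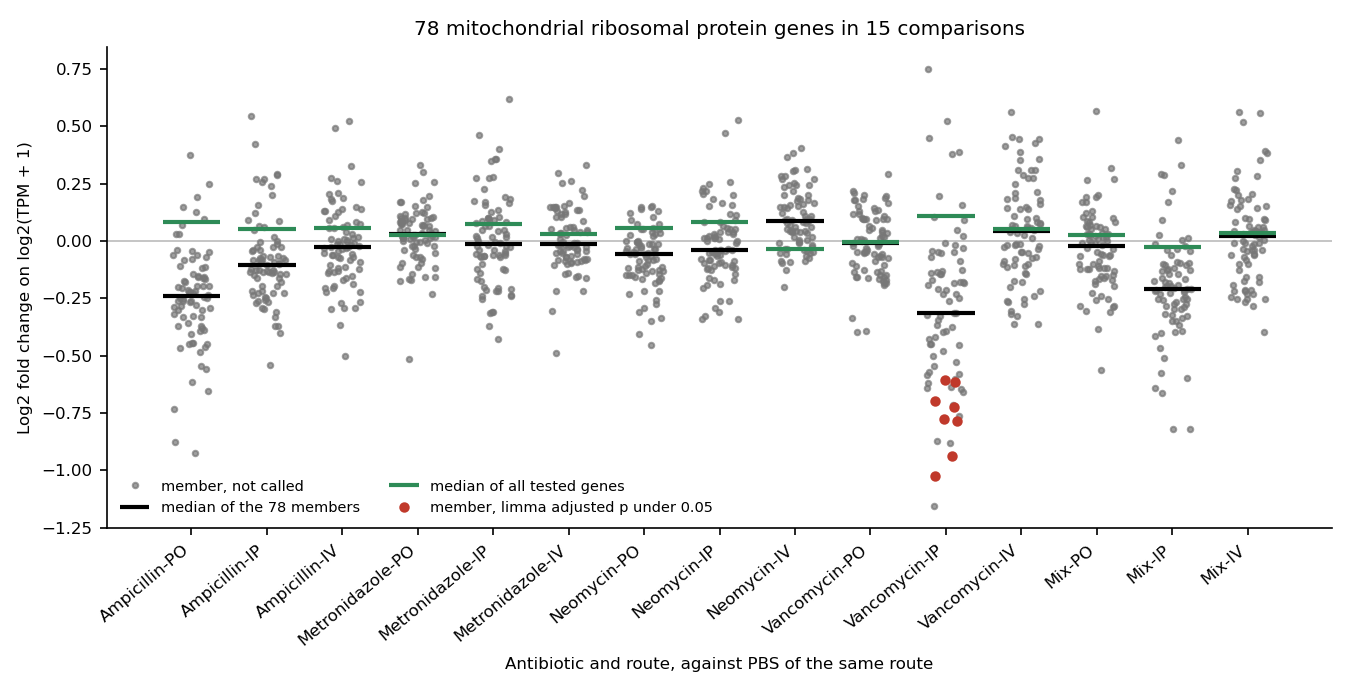
Log2 fold change on log2(TPM + 1) of each of the 78 members in the 15 comparisons with PBS of the same route (dots; red, limma adjusted p under 0.05), with the median of the members (black) and of all 17083 tested genes (green). The red dots occur in Vancomycin-IP alone, and the members' median lies furthest below that of all genes there, in Ampicillin-PO and in Mix-IP.

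In the comparisons other than these no member was called by limma with equally weighted libraries. This depended on the weighting: with array weights 25 members (32.1%) were called for oral ampicillin, 44 (56.4%) for the intraperitoneal mix and 16 (20.5%) for intravenous vancomycin, against 18.1%, 36.7% and 31.1% of tested genes. The share of all tested genes called was 0.0702% for oral, 0.492% for intraperitoneal and 0.0820% for intravenous ampicillin. It was 0% for metronidazole by each route, 0.176% for oral and 0.258% for intravenous vancomycin, and 0.252%, 0.275% and 0% for the oral, intraperitoneal and intravenous mix. At an unadjusted p under 0.05 the counts were 13, 2 and 3 of 78 members for oral, intraperitoneal and intravenous ampicillin (15.9%, 9.86% and 6.29% of tested genes) and 1, 3 and 0 for metronidazole (3.25%, 7.15% and 1.48%). They were 0 for oral and 9 for intravenous vancomycin (6.05% and 13.6%), and 2, 6 and 3 for the oral, intraperitoneal and intravenous mix (10.9%, 14.6% and 5.60%). Apart from oral ampicillin, where the shares were close, the share of members was below that of all tested genes in each of these.

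Oral ampicillin gave the largest of these, with 12 members lower and 1 higher at an unadjusted p under 0.05 (5.50% and 10.4% of tested genes), and a median of -0.24 beside 0.08 for all genes. Its lowest members were Mrpl52 (-0.92 ± 0.30, SE; limma adjusted p = 0.246) and Mrpl49 (-0.88 ± 0.36; adjusted p = 0.304). The smooth muscle score was 1.20 higher there than in PBS-PO, and with both scores in the model the median was -0.04. The intraperitoneal mix had 5 members lower and 1 higher (8.56% and 6.04% of tested genes) and a median of -0.21 beside -0.03. There the muscle score was 0.22 lower and the distal score 2.77 against 4.62, and with both scores in the model the median was -0.17. The 79 cytosolic ribosomal proteins had medians of -0.58 for oral ampicillin and -0.76 for the intraperitoneal mix, below those of the members, and none was called. Intravenous vancomycin had 9 members higher and none lower (10.3% and 3.33% of tested genes), led by Mrps23, Mrpl11, Mrpl42 and Mrps30, with a median of 0.04 beside 0.05. In the oral mix, Mrps31 was higher in all 6 treated libraries than in all 6 PBS libraries, as were 0.714% of tested genes (35.0 ± 3.89 against 23.5 ± 4.13 TPM, SD; log2 fold change 0.57 ± 0.18, limma adjusted p = 0.158). The distal score there was 2.39 against 4.35, and Mrps31 fell with that score across libraries, as given below. Whether the score accounts for the higher Mrps31 in the oral mix was not tested. These members were named after their values were seen.

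Mrps23 was above PBS in 12 of the 15 comparisons, at an unadjusted p under 0.05 in 8, and was called in none. Its largest log2 fold changes were 0.56 ± 0.18 (SE) for intravenous vancomycin, which had the smallest adjusted p of any member outside Vancomycin-IP (limma, 0.123), and 0.55 ± 0.19 for intraperitoneal ampicillin (0.167). Comparisons of a route share their PBS libraries, so these values are not independent. The PBS levels themselves were 53.7 ± 12.3 TPM (SD, n = 6) by the oral, 42.1 ± 8.52 TPM (n = 4) by the intraperitoneal and 43.6 ± 13.5 TPM (n = 5) by the intravenous route. The intraperitoneal groups given a drug had means of 54.3 to 61.5 TPM.

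Whether the response of a member depended on the route was tested with a limma F test of equal fold changes over the 3 routes. No member was called for any of the 5 treatments, nor among the PBS groups alone. The share of tested genes called was 0.0878% for neomycin and 0% for the others. At an unadjusted p under 0.05 there were 3 members for vancomycin (6.60% of tested genes), Mrpl18, Mrpl27 and Mrpl32, and 2 for PBS (2.26%), Mrpl19 and Mrps30. There were none for ampicillin, metronidazole, neomycin or the mix (1.41%, 0.913%, 2.44% and 2.38%). Mrpl32 had log2 fold changes of -0.05, -0.61 and 0.27 for oral, intraperitoneal and intravenous vancomycin, and its adjusted p in the F test was 0.632. In this fit, a fall by 1 route and not by another was therefore not shown to differ between routes. With array weights the F test called 2 members (2.56%) for PBS, 6 (7.69%) for the mix and 27 (34.6%) for vancomycin, against 4.56%, 11.6% and 17.4% of tested genes.

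Within groups, most members were lower in libraries with a higher smooth muscle score. In a limma model with the 18 groups and both scores, 56 of 78 members (71.8%) fell with the muscle score and 5 (6.41%) rose with it at an adjusted p under 0.05, against 35.1% and 42.9% of tested genes. The median slope was -0.14 log2 units per unit of score, beside 0.02 for all tested genes. Of the small subunit genes 21 of 27 fell and none rose with the score, and of the large subunit genes 35 of 51 fell and 5 rose. Members with a bacterial counterpart (34 of 45 lower) and without one (22 of 33) had like shares. The difference between these shares was not tested.

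Mrpl12 had the steepest slope, at -0.41 ± 0.04 (SE) per unit of score (limma adjusted p = 6.16e-14). It was followed by Mrps6 (-0.39 ± 0.05), Mrps24 (-0.38 ± 0.03), Mrps35 (-0.37 ± 0.03) and Mrpl40 (-0.35 ± 0.02). All 8 members called in Vancomycin-IP were among the 56. The members that rose with the score were Mrpl49 (0.22 ± 0.06), Mrpl4 (0.11 ± 0.03), Mrpl23 (0.10 ± 0.03), Mrpl38 (0.09 ± 0.04) and Mrpl3 (0.08 ± 0.02), and 4 of these are the genes that did not follow the other members across libraries. Under quantile normalization Mrpl23 turned to -0.03, and Mrpl38 and Mrpl3 were no longer called.

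On the distal score, 43 members (55.1%) rose and 2 (2.56%) fell at an adjusted p under 0.05, against 30.3% and 32.5% of tested genes. The steepest were those of Mrps6 (0.20 ± 0.03, SE; limma adjusted p = 5.72e-09) and Mrps24 (0.13 ± 0.02), followed by Mrpl52 (0.12 ± 0.02), Mrps16 and Mrpl9. Mrps31 (-0.09 ± 0.02) and Mrps25 (-0.04 ± 0.02, adjusted p = 0.043) fell. In all, 34 members were called both lower with the muscle score and higher with the distal score, as were 15.6% of tested genes.

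**Figure D5:**
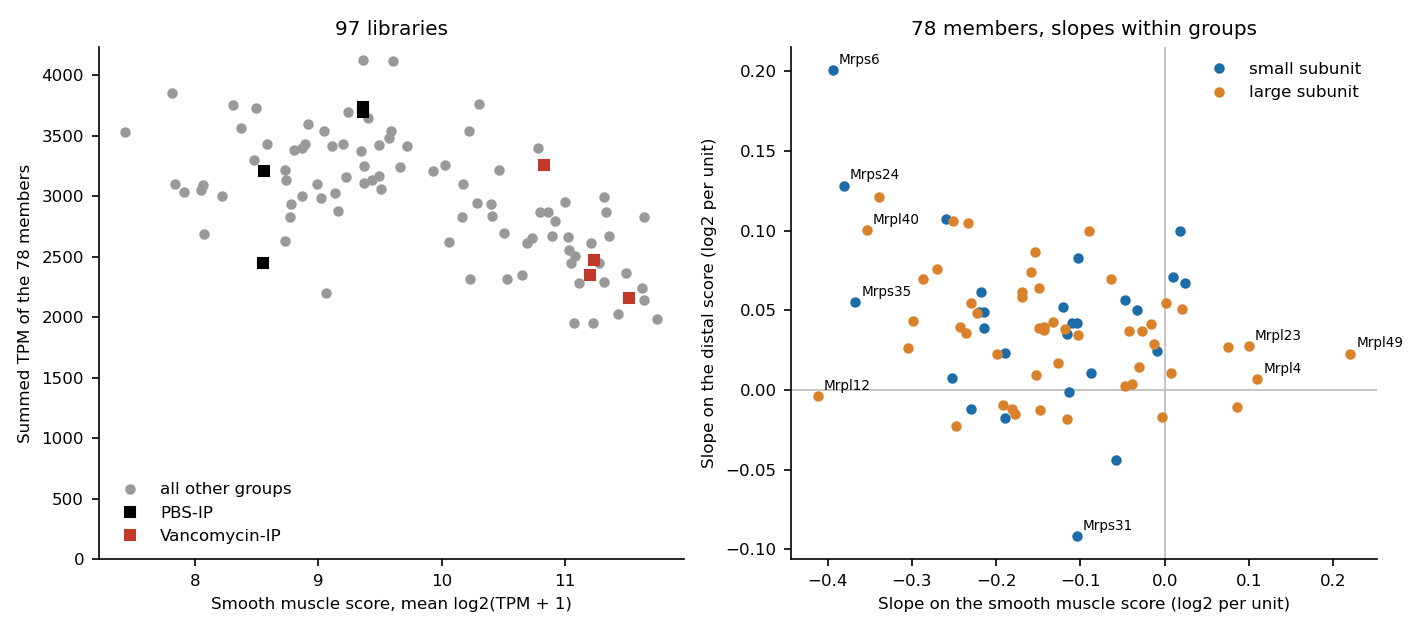
Left, summed TPM of the 78 members against the smooth muscle score in 97 libraries, with the PBS-IP (black) and Vancomycin-IP (red) libraries marked. Right, the slope of each member on the muscle score (x) and on the distal score (y), in log2 units per unit of score within groups; most points lie to the left of 0, from -0.41 for Mrpl12 to 0.22 for Mrpl49.

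Gene lists of related machinery were given the same slopes. Of the cytosolic ribosomal proteins 78 of 79 were lower with the muscle score (median slope -0.30) and 77 higher with the distal score, and of the nuclear oxidative phosphorylation subunits 79 of 83 were lower with the muscle score (median -0.31). The 24 genes of mitochondrial ribosome assembly and rRNA modification were split, with 7 lower and 7 higher. All 13 protein genes of the mitochondrial genome were higher with the muscle score (median 0.24), opposite in sign to most of the members. On the log2 summed level of those 13 genes, in TPM rescaled without them, 45 members were called lower and 3 higher at an adjusted p under 0.05 (24.0% and 42.9% of tested genes). With the muscle and distal scores in that model the counts were 15 and 1 (13.9% and 28.4%). This slope was added after the data had been seen.

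Some members share sequence with neighbours, which limits what their values can say. Exons of 21 of the 78 overlap those of another tested gene in the GENCODE vM21 annotation. Among the members named above, Mrps6 overlaps Slc5a3, Mrps24 overlaps Urgcp and Mrps34 overlaps Nme3 on the same strand. The longest overlaps are on the opposite strand, of Mrps25 with Nr2c2 (3533 bases) and Mrpl19 with Gcfc2 (1962 bases). Also on the opposite strand, Mrpl14 overlaps Tmem63b, Mrpl18 overlaps Tcp1, Mrpl47 overlaps Actl6a and Ndufb5, and Mrpl49 overlaps Syvn1. No source used here states that strand was used in the counting, so reads in these overlaps cannot be told apart.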

How the data were processed

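The authors deposited 1 table of TPM per gene for 97 poly(A)-selected whole colon libraries, read as single-end 75-cycle runs per the labels' protocols. The submitters' processing notes name Trim Galore 0.6.2, cutadapt 3.5, Salmon and the build GRCm39, with no roles given. Every library has the same total, so depth is unknown and no count test was made. Columns were matched to samples by library name, with none unmatched. The members, gene lists and scores were chosen with earlier results of these data known.

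Here, TPM was moved to log2(TPM + 1), genes with TPM of 1 or more in at least 4 libraries were kept, and limma 3.58.1 in R 4.3.3 (trend, robust) was fitted once to all 18 groups. Adjusted p is Benjamini-Hochberg over all tested genes of a comparison, and a gene is called under 0.05. Slopes and F tests used the same fit with scores added or routes contrasted. The code was tested on simulated data. Named genes were the called members with the largest changes (up to 6 in each direction), the 4 smallest p-values in each neomycin comparison, Mrps12, Mrpl12 and Mrpl58, the 5 highest and lowest members, the 4 extremes of correlation, the 5 steepest slopes, and the largest called genes of each list; others are said to be named after their values were seen. Each result was recomputed with quantile normalization, a pseudocount of 10, every gene kept, with mitochondrial genome transcripts removed, array weights, the compared groups alone, a replicate block, the scores as covariates, without the appended columns, and leaving out each library. Promoters came from RefSeq (GRCm38.p6), matched by symbol.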

Additional observations from a re-analysis of the deposited data

Results flagged for a closer look

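In 75 groups of values (summed TPM of the members and TPM of single members, by group of 4 to 6 libraries), the gap between the most extreme library and its nearest neighbour was beyond Dixon's 95% value in 6, and chance alone gives about 1 in 20. The summed TPM of the members was low in Metronidazole-IP replicate 3, at 2291 TPM with the next library at 3540.4 TPM, and in PBS-IV replicate 4, at 1956 TPM with the next at 2933 TPM. In PBS-IV the same library was low for Mrpl58, at 23.8 TPM with the next at 37.6 TPM. Vancomycin-IP replicate 4 was high for Mrpl14, at 51.9 TPM with the next at 32.3 TPM, and for Mrpl58, at 49.1 TPM with the next at 31.9 TPM. Neomycin-IV replicate 1 was low for Mrpl58, at 26.4 TPM with the next at 38.1 TPM.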

How the results depend on the processing

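The 8 members called in Vancomycin-IP against PBS-IP (10.3%; 19.0% of tested genes in either direction) became 5 without a filter (14.2%), 30 with quantile normalization (21.2%), 23 without mitochondrial genome transcripts (15.3%) and 53 with array weights (57.9%), with the share of all tested genes in parentheses. They became 0 with the muscle and distal scores in the model (0.556%). Without the appended columns 1 treated and 2 PBS libraries are left, so no count is given for that setting. Leaving out each library gave 0 to 27. Array weights called members where the equally weighted fit called none: 25 in Ampicillin-PO (18.1% of tested genes), 2 in Ampicillin-IP (9.69%), 1 in Neomycin-IP (Mrpl22; 6.67%), 16 in Vancomycin-IV (31.1%), 3 in Mix-PO (9.52%), 44 in Mix-IP (36.7%), 1 in Mix-IV (1.46%), and in the F tests 2 for PBS (4.56%), 6 for the mix (11.6%) and 27 for vancomycin (17.4%). The cause was not tested. Leaving out each library gave 0 to 2 for Mix-IP (2 without PBS-IP replicate 3) and 0 to 1 for Vancomycin-IV (1 without PBS-IV replicate 4). The slopes on the muscle score ranged from 55 to 58 lower and 4 to 5 higher when each library was left out, and those on the distal score from 37 to 46 higher and 1 to 2 lower. Quantile normalization gave 2 higher on the muscle score and 1 lower on the distal score, and turned the slope of Mrpl23 on the muscle score to -0.034. The count lower on the distal score was 4 without mitochondrial genome transcripts and 1 with the replicate block. With the replicate block, Vancomycin-IP gave 7 called members (19.3% of tested genes in either direction), Mrpl14 no longer among them. No other comparison with PBS changed its count. The number was not taken to pair libraries, since in 0 of the 15 comparisons did every same-numbered pair correlate above 0.1. This strict rule cannot show that pairing is absent. Above 0.1 were 5 of 6 pairs in Vancomycin-PO and 4 of 6 in both Neomycin-PO and Mix-PO. In Ampicillin-IV, Metronidazole-IV and Mix-IP 0 pairs were. TPM keeps no depth, so the precision of low members such as Mrpl1 cannot be read from the table.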
